A study of Caenorhabditis elegans with 2 samples.

Results

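The 250 strongest peaks of the transcription factor ATF-7 in young adult *Caenorhabditis elegans* are described here. They are the 250 peaks with the highest signal among the 2247 that passed the authors' irreproducible discovery rate (IDR) analysis, which judges peaks by how alike they rank between lists. They are called members below, and the remaining 1997 are called the other IDR peaks. Of the 2247, 93.1% had a summit within 100 bp in each replicate. That distance was chosen here, so the share does not show how the authors' analysis paired peaks. The signal is the authors' own value per peak, read here as relative to a control since the peak caller is not named in the sources used here, and because the members were chosen by this value, their signals and ranks are a description and are given without a test.

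The data were 2 chromatin immunoprecipitation sequencing (ChIP-seq) libraries of whole worms of strain OP638, biological replicates 2 and 3, from separate biosamples and forming 1 group. The worms were unc-119(tm4063) III and carried the transgene wgIs638, which expresses ATF-7 with a GFP-FLAG tag at its C-terminus, and they were mixed-sex young adults synchronised by starvation at the first larval stage after bleaching. The labels differ on the antibody, naming anti-GFP in the description and atf-7 in the antibody field. Peaks of worms without the transgene, and the control library itself, were not analysed here. All tissues were in 1 extract, so binding in more cells and more binding per cell cannot be told apart. The transgene carries atf-7 sequence, so reads of the chromosomal atf-7 locus and of the transgene cannot be told apart.

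ATF-7 is a basic leucine zipper (bZIP) protein of the ATF/CREB family. Proteins of this family bind DNA as dimers, and their classical site is the cyclic AMP response element (CRE), TGACGTCA, a palindrome that holds the core TGACG on each strand. In *C. elegans* ATF-7 is known as a target of the PMK-1 mitogen-activated protein kinase in the defence against bacterial infection.

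Sequences at 12 members are shown first, because the comparisons of sequence below rest on motifs such as these. They were taken from the RefSeq copy of assembly WBcel235, the same assembly as ce11, on the plus strand, centred on the summit, with matches to the named motif in capitals. Each reaches 50 bases to either side of the summit, or 100 bases where the motif lay farther than 50 bases from it. Only members on chromosomes II to V and X were taken, and windows overlapping an annotated untranslated region were skipped. The peaks at ranks 5, 6 and 14 also held a full CRE but were left out by these rules. The 4 strongest of the rest with a full CRE began with the second strongest peak, upstream of fos-1 (V:6000424-6000524). The others were nearest bcat-1 (X:12872393-12872593) and dhs-25 (X:1486376-1486476), and 56 bp upstream of the 5′ end of xbp-1 (III:4193703-4193803). The capitals in these 4 mark TGACGTCA.
fos-1: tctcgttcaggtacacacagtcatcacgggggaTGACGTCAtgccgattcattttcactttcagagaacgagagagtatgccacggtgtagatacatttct
bcat-1: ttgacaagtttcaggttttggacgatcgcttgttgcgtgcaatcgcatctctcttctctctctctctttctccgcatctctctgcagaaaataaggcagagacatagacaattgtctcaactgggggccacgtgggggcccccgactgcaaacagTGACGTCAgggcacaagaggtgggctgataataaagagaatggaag
dhs-25: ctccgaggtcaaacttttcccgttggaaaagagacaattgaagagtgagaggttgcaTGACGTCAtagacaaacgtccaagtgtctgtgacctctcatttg
xbp-1: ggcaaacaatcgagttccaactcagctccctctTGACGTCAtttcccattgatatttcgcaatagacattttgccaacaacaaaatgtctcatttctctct

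The 3 strongest with the E-box CACGTG and no CRE were nearest tos-1 (V:9344207-9344407), epg-9 (IV:2602072-2602272) and nhr-88 (II:2974043-2974243). The E-box is the classical site of basic helix-loop-helix proteins, a different family. The capitals mark CACGTG.
tos-1: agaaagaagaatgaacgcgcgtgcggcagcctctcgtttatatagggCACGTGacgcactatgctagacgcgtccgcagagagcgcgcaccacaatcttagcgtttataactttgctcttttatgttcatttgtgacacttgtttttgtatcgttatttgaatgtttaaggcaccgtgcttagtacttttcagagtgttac
epg-9: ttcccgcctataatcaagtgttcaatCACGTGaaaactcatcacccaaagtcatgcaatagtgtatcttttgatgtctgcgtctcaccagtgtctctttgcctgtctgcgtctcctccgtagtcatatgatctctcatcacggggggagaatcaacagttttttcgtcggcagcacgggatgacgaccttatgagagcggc
nhr-88: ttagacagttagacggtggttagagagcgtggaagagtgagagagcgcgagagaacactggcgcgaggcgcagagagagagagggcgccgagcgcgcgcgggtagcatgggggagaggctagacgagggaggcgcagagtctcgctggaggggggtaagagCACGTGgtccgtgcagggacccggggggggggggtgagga

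The 3 strongest with a run of GAGAGAGA on either strand and neither of those sites were nearest pqn-41 (III:1925185-1925385), daf-5 (II:14040396-14040496) and Y54G11A.2 (II:14251552-14251652). The capitals mark the run, which reads as TCTCTCTC where it lies on the minus strand.
pqn-41: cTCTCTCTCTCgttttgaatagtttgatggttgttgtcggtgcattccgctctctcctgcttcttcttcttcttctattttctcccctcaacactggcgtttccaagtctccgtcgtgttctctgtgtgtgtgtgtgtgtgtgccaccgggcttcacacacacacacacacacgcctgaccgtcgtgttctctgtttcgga
daf-5: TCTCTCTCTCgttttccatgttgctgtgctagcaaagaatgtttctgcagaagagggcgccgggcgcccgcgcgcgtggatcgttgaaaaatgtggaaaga
Y54G11A.2: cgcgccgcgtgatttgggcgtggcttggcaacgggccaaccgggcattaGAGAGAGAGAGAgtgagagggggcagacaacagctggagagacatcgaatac

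The 2 strongest with none of the 8 motifs searched were the strongest peak of the study, upstream of tag-340 (III:4899827-4899927), and the peak upstream of rpl-3 (III:3867530-3867630). They are shown because neither holds even the core TGACG within 100 bp of its summit, so they carry no capitals.
tag-340: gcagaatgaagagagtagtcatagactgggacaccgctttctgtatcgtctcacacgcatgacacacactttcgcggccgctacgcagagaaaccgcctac
rpl-3: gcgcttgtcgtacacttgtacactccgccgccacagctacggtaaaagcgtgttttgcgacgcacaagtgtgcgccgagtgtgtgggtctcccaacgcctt

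The members spanned a signal of 282 to 1586, with a median of 377 and quartiles of 319 and 510, while the other IDR peaks lay between 105 and 282 with a median of 141. The distribution was steep at its top, since 8 members had a signal over 1000 and 66 had one over 500. There was no step at the threshold. The last 5 members were nearest Y59A8B.24 (283.7), pbrm-1 (283.5), cyp-34A1 (283.4), bet-2 (283.4) and T21H3.1 (282.5). The 5 peaks just outside were nearest lelo-2 (282.3), F56G4.6 (282.3), Y39E4B.6 (281.4), xol-1 (281.0) and W06H8.6 (281.0). The 250 members were also ranks 1 to 250 of the 30000 peaks of the pooled reads before the IDR step, so no stronger peak was lost to that step. Their median width was 308.5 bp against 436 bp for the other IDR peaks, of which 1645 had the single width of 436 bp, as did 9 members.

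The strongest peak, with a signal of 1586 (III:4899571-4900146), lay between tag-340 and nhl-2, which are transcribed away from each other. Its summit was 631 bp upstream of the 5′ end of tag-340, which RefSeq names a START domain-containing protein, and 792 bp upstream of that of nhl-2, a cofactor of small RNA silencing. Its signal was 551 in replicate 2 and 1029 in replicate 3, rank 2 and rank 1. The second, at 1529 (V:6000220-6000770), lay in intergenic sequence 3127 bp upstream of the nearest 5′ end, that of fos-1, the worm member of the Fos family of bZIP factors. It had a signal of 575 in replicate 2 and 955 in replicate 3, rank 1 and rank 2, so the first and second places changed hands between the replicates. The third, at 1326 (X:15841083-15841482), was 294 bp upstream of serp-1.1, which encodes a stress-associated protein of the endoplasmic reticulum. It was rank 3 in both replicates, at 484 in replicate 2 and 845 in replicate 3 on their own scales.

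Ranks 4 to 10 were held by the peaks nearest tasp-1, Y43F8B.2, F02E9.5, rpl-3, sup-26, bcat-1 and dhs-25, with signals between 906 and 1102. The peak of tasp-1, a taspase homologue, was at 1102, 43 bp upstream of its 5′ end. That of Y43F8B.2, with a GSKIP domain, was at 1064, 41 bp downstream of its 5′ end. F02E9.5, which RefSeq names an oxidative stress-responsive serine-rich protein, had its peak at 1056, 823 bp upstream. The peak of rpl-3, a protein of the large ribosomal subunit, was at 1051. Those of sup-26, an RNA-binding protein of sex determination, at 1047, and of bcat-1, an aminotransferase for branched-chain amino acids, at 966, lay outside promoters, 1985 and 4987 bp upstream. The peak of dhs-25, a 3-hydroxyacyl-CoA dehydrogenase, was at 906, 106 bp upstream. Of the 10 strongest members, 5 held a full CRE and 3 lay outside promoters, a promoter being taken as 1000 bp before to 200 bp after any 5′ end of a protein-coding gene's transcripts.

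Ranks 11 to 30 were at signals of 848 to 621. They included the peak nearest cmd-1, which encodes calmodulin, 4768 bp upstream (848), and those nearest Y37A1A.2, an ADP,ATP carrier protein, 6409 bp upstream (798), and W02H3.3, 3998 bp downstream (793). At promoters stood K11D12.14 with pqn-51 (777), Y17G9B.5 with rpl-20 (749), nspc-17 (711), xbp-1 (708), rpl-15 (705), F59B1.8 (701) and cdc-48.1 (697). XBP-1 drives the unfolded protein response of the endoplasmic reticulum, and CDC-48.1 is an ATPase that extracts proteins for degradation. Lower in this range were the promoters of tos-1 (639), of F44E5.4 and F44E5.5 (632), divergent genes of the heat shock protein 70 family, of epn-1 (628), and of drr-2 with set-16 (621). Peaks outside promoters were nearest cest-16 (714), ppfr-1 (695), zip-2 (692), vhp-1 (672), T28F4.1 (664) and K02D3.1 (628). VHP-1 is a phosphatase of stress-activated mitogen-activated protein kinases, and its peak lay in an annotated intron 1140 bp upstream of the nearest vhp-1 5′ end. In all, 12 of the 30 strongest members lay outside promoters and 8 of the 30 held a full CRE.

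**Figure D1:**
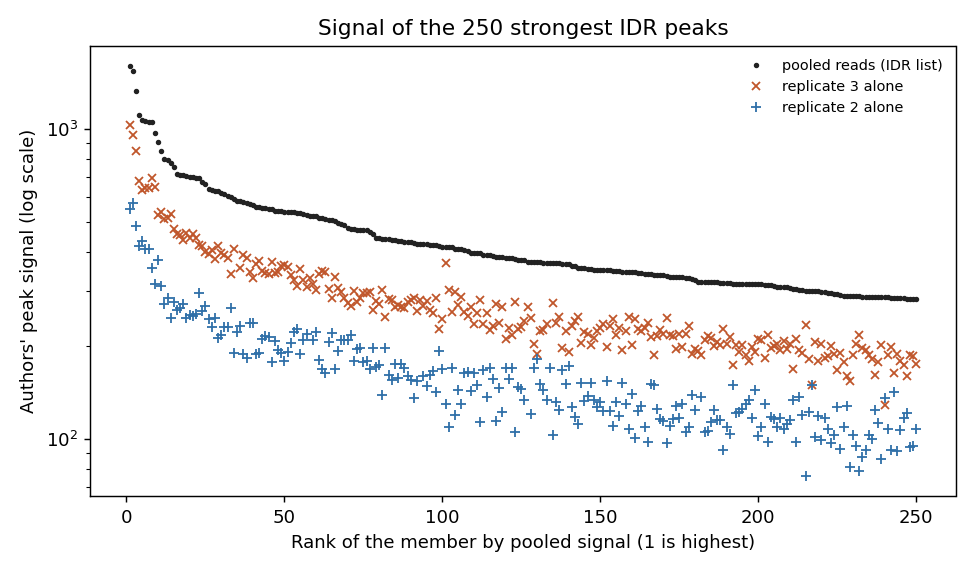
Peak signal on a log scale against rank by pooled signal for the 250 members, with each point 1 peak. Black points are the signal of the pooled reads, which chose the members and runs between 282 and 1586. Crosses are the nearest summit within 100 bp in replicate 3 (129 to 1029) and plus signs that in replicate 2 (76.1 to 575). Signals of different lists are not on 1 scale, so only the order within a list is to be compared.

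The 2 replicates contributed to the pooled reads, so their ranks are not independent of the selection. A summit within 100 bp was found for 246 members in replicate 2 and for 248 in replicate 3, and for 244 in both. The background was 93.1%, the share of all 2247 IDR peaks matched in both replicates. The median rank of the matched members was 124.5 in each replicate. Of the members, 202 were among the 250 strongest peaks of replicate 2 and 227 among those of replicate 3, where 11.1% of all IDR peaks reached that limit in replicate 2 and 11.1% in replicate 3. The limit was reached in both replicates by 184 members, in replicate 3 alone by 43, in replicate 2 alone by 18 and in neither by 5. Within the 500 strongest peaks the counts were 243 in replicate 2 and 247 in replicate 3. The signal ran from 76.1 to 575 with a median of 145 in replicate 2 and from 129 to 1029 with a median of 239 in replicate 3. The median log2 ratio of replicate 3 over replicate 2 was 0.78 (SD 0.28) in the members and 0.77 (SD 0.57) in the other IDR peaks, on the signal scale of the lists.

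The 5 best summed ranks belonged to the peaks of tag-340, fos-1, serp-1.1, tasp-1 and Y43F8B.2, all within rank 9 of either replicate. The 5 worst belonged to weak members, between ranks 215 and 240 of the pooled list. The peak of mdt-26 had rank 518 in replicate 2 and 379 in replicate 3. That of dod-3, a gene downstream of the DAF-16 factor, had ranks 604 and 132 in these replicates, that of C30E1.4, of the SID1 family, 141 and 593, that of T28B8.1 560 and 163, and that of the nuclear receptor gene nhr-19 435 and 204. These members were high in 1 replicate or moderate in both. No summit within 100 bp was found in 1 replicate for 6 members. For 5 of them, nearest egg-5, C42D8.9, col-94, spat-3 and gcy-33, the nearest summit of the lacking replicate was 115 to 156 bp away. The sixth, near Y25C1A.8, had a signal of 524 in the pooled reads and 329 in replicate 3 (rank 57), and its nearest summit in replicate 2 was 2276 bp away.

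**Figure D2:**
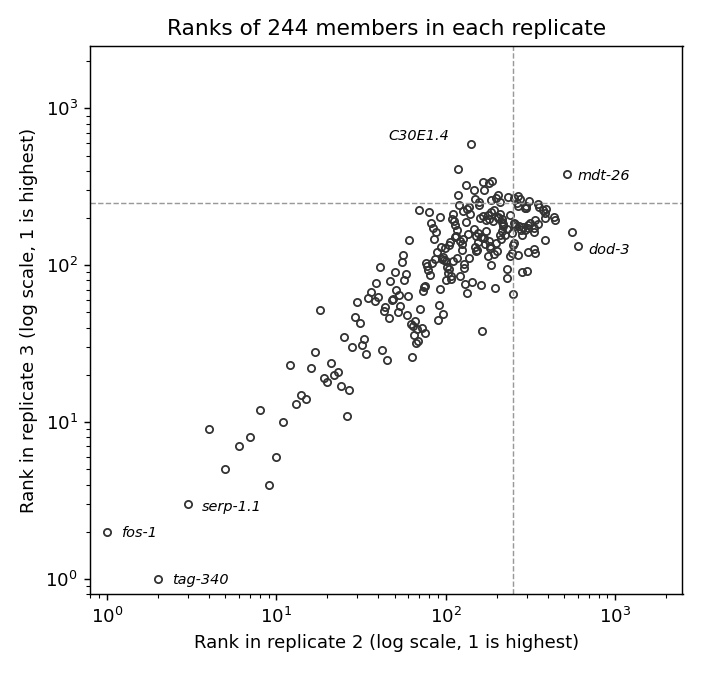
Rank in replicate 3 against rank in replicate 2, both on log scales, for the 244 members with a summit within 100 bp in both. Each circle is 1 peak, and the dashed lines mark rank 250. The strongest peaks lie near the diagonal, with fos-1 and tag-340 exchanging ranks 1 and 2, and the weakest ranks were 604 in replicate 2 and 593 in replicate 3.

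Location was not used to choose the members, and was compared with that of the other IDR peaks with Fisher's exact test, two-sided, with Benjamini-Hochberg adjustment over 9 features. Peaks are positions and not replicates, so these p-values compare positions in 1 set of worms. Summits lay in intergenic sequence in 164 members (65.6%, exact 95% interval 59.4 to 71.5) against 57.1% of the other IDR peaks (adjusted exact p = 0.0212). They lay in coding exons in 12 members (4.8%, interval 2.50 to 8.23) against 10.4% (adjusted exact p = 0.00966). Intronic summits were 60 in number (24%) against 25.6% (adjusted exact p = 0.644), and 8 summits were in 5′ untranslated regions and 6 in 3′ untranslated regions. The members were thus found more often outside protein-coding genes and less often in coding sequence. Intergenic here means outside protein-coding genes, so summits at small RNA genes can be counted in it.

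Promoters held the summit of 131 members (52.4%, interval 46.0 to 58.7) and of 48.7% of the other IDR peaks, which did not pass the test (adjusted exact p = 0.319). With promoters of 500 bp to each side the order turned, 39.2% against 42.4% (adjusted exact p = 0.424). Promoters of genes on both strands at once held 34 members (13.6%, interval 9.61 to 18.5) against 7.96% (adjusted exact p = 0.0123). With 500 bp to each side this became 8% against 5.16% (adjusted exact p = 0.113). The list of replicate 3 alone was also used. Its 250 strongest peaks were set against its further peaks to rank 2247, which need not have passed IDR. The divergent share was then 12.4% against 8.36% (adjusted exact p = 0.0779). The intergenic share was 65.2% against 57.6% (adjusted exact p = 0.0552), so neither call held in that list. Of the 131 promoter members, 122 lay upstream of the nearest 5′ end, at a median position of 273 bp upstream. The distance of all members to the nearest 5′ end had a median of 803 bp, quartiles of 268 and 2191 bp and a maximum of 16166 bp, and was over 5000 bp in 18. Outside promoters, 67 members lay in intergenic sequence and 40 in introns.

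Members lay less often beside transfer RNA (tRNA) genes than the other IDR peaks did. A tRNA gene was within 200 bp of 7 members (2.8%, interval 1.13 to 5.68) and of 176 other IDR peaks (8.81%, interval 7.61 to 10.1; adjusted exact p = 0.00225). None of the 100 strongest members was among the 7. The strongest, nearest M02F4.2 on chromosome X, was rank 122 with a signal of 382. In the list of replicate 2 alone, the 250 strongest peaks had a share of 4.8%, against 7.46% of its further peaks to rank 2247 (adjusted exact p = 0.195). The call thus did not hold in that list. Genes of small nucleolar RNA, small nuclear RNA, ribosomal RNA or microRNA were within 200 bp of 19 members (7.6%) against 4.86% (adjusted exact p = 0.104). A microRNA gene was beside none of the 250 members and 12 of the other 1997 IDR peaks. At counts this low no difference is read from them. Of the 19 members, 12 were beside a small nucleolar RNA gene, as were 70 of the other IDR peaks. The other 7 were beside a gene annotated as small nuclear RNA, as were 17 of the other IDR peaks. Of those 7, 4 stood at sls-2.1, sls-2.2 and sls-2.4, which encode the SL2 leader RNA that is spliced onto the downstream genes of operons, with signals of 552, 539, 585 and 416. Another 8 of the other IDR peaks were near an sls-2 gene, of which the annotation has 18.

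A second IDR summit lay within 2000 bp of 102 members (40.8%) and of 27.7% of the other IDR peaks (adjusted exact p = 0.000292). Peaks that overlap contribute to this. Of the members, 24 shared their interval with another IDR peak, as did 23 of the other 1997, and with overlapping peaks merged the shares were 28.4% against 23.3% (adjusted exact p = 0.132). Chromosome X held 64 members (25.6%) against 21.4% of the other IDR peaks (adjusted exact p = 0.185). The density of members was 3.61 per Mb on X, 3.26 on III, 2.42 on II, 2.15 on V, 2.12 on I and 1.54 on IV. For the other IDR peaks it was 24.1 on X, 23.4 on III, 20.7 on II, 15.7 on V, 19.8 on I and 17.4 on IV. X, III and II thus led in both sets. The 50 bases around the summit occurred nowhere else in the genome for any of the 250 members, which allows a share of up to 1.46%, the upper end of the exact interval. They occurred again for 2.25% of the other IDR peaks.

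**Figure D3:**
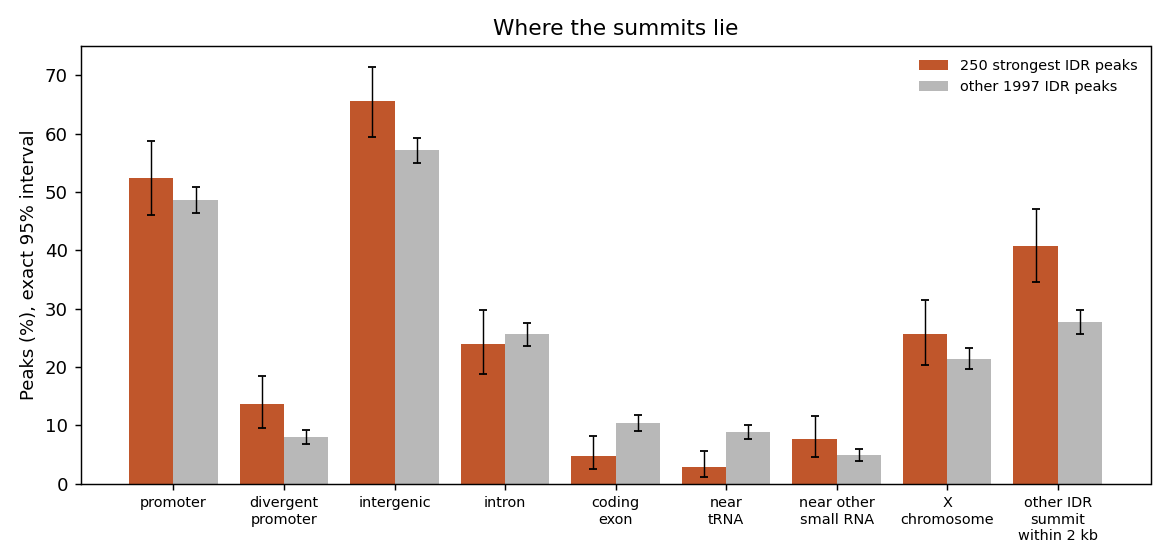
Percentage of peaks with each location, for the 250 members (left bars) and the other 1997 IDR peaks (right bars), with exact 95% intervals as error bars. The categories overlap. The members' bars are higher for intergenic sequence (65.6% against 57.1%), divergent promoters (13.6% against 7.96%) and a neighbouring summit (40.8% against 27.7%), and lower for coding exons (4.8% against 10.4%) and tRNA genes (2.8% against 8.81%).

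The sequence from 100 bp before to 100 bp after each summit was searched for 9 motifs on either strand. The members were compared with the other IDR peaks by Fisher's exact test and with a window of the same length 500 bp toward the higher coordinate by the exact McNemar test, each two-sided and adjusted over 9 motifs. A full CRE was present at 46 members (18.4%, interval 13.8 to 23.8), at 8.71% of the other IDR peaks (adjusted exact p = 6.92e-05) and at 4.79% of the 30000 pooled peaks. In the flanks of the members it was present in 2 windows (0.8%; adjusted exact p = 5.84e-11, with 46 members holding it at the summit only and 2 in the flank only). The core TGACG, which lies within every CRE and therefore counts the same sites again, was present at 121 members (48.4%) against 39.4% of the other IDR peaks (adjusted exact p = 0.0340), 18.8% of the flanks (adjusted exact p = 5.84e-11) and 29.3% of the pooled peaks. The GC content of the summit windows had a median of 45.3% in the members, 42.3% in the other IDR peaks and 36.3% in the members' flanks, and its part in these differences was not tested.

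The 46 members with a CRE held 56 sites. The middle of the site was a median of 22.5 bp from the summit, and 25 of the 56 lay within 20 bp of it. Along the members the count did not follow the signal, with 9, 9, 8, 10 and 10 members holding a CRE in successive groups of 50 from the strongest to the weakest. Beyond them the share was lower in every group of 250 peaks, from 11.6% in ranks 251 to 500 to between 5.2% and 10.4% in the 7 further groups. The median signal was 387 in members with a CRE and 374 in those without. A CRE was present at 30 of the 131 promoter members (22.9%) and at 16 of the 119 outside promoters (13.4%), a difference that was not tested.

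The E-box CACGTG was present at 34 members (13.6%) against 2% of their flanks (adjusted exact p = 3.25e-06) and 6.00% of the pooled peaks. The GA repeat GAGAGAGA was present at 23 members (9.2%) against 0.8% of the flanks (adjusted exact p = 4.37e-05) and 3.51% of the pooled peaks. Against the other IDR peaks these shares did not pass the test, at 11.6% for the E-box (adjusted exact p = 0.723) and 8.81% for the GA repeat (adjusted exact p = 0.814). E-boxes were centred a median of 32.5 bp from the summit, where sites spread evenly over the window would give about 50 bp. The median for GA repeats was 57.5 bp over 80 matches at the 23 members. Overlapping matches in 1 long run were counted separately, so that median is weighted to long runs and was not set against the others. CRE and E-box occurred together at 9 members, among them those of F02E9.5, bcat-1 and mml-1.

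The remaining motifs passed neither test. TGATAA, the site of GATA factors, was at 24.8% of members, 28.4% of the other IDR peaks and 20.4% of the flanks. The site of the stress factor SKN-1, NNTNTCAT with A or T at the first pair of N and A or G at the last, was at 11.2%, 9.86% and 7.2% of these windows. The AP-1 site, TGAGTCA on either strand, was at 3.2%, 2.55% and 3.2%, and the C/EBP site, TTNNGNAA with A or G, C or T and C or T at the N, at 4.4%, 4.01% and 3.6%. A scrambled CRE, TCAGATGC, was at 0.4%, 0.30% and 0.4%. None of the 8 motifs other than the scramble was found at 76 members (30.4%), including tag-340, rpl-3 and sup-26 among the 10 strongest, and at 31.7% of the other IDR peaks.

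**Figure D4:**
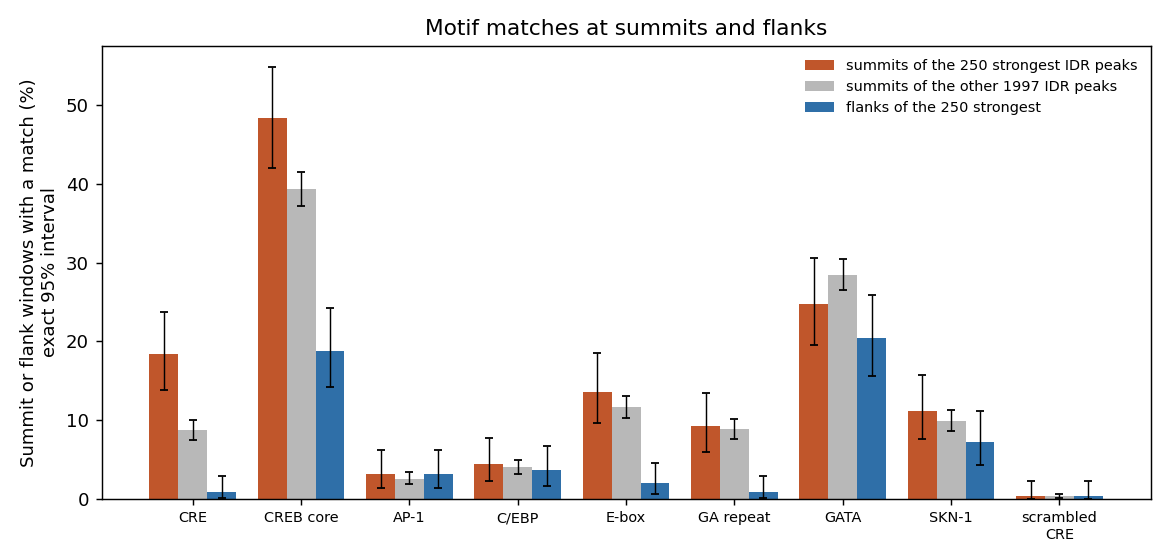
Percentage of windows of 100 bp to each side with at least 1 match to each motif, for the summits of the 250 members, the summits of the other 1997 IDR peaks and the flanks of the members, with exact 95% intervals. The CRE bar is 18.4% for members, 8.71% for the other IDR peaks and 0.8% for flanks, while the AP-1, C/EBP and scrambled bars are low in all 3.

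**Figure D5:**
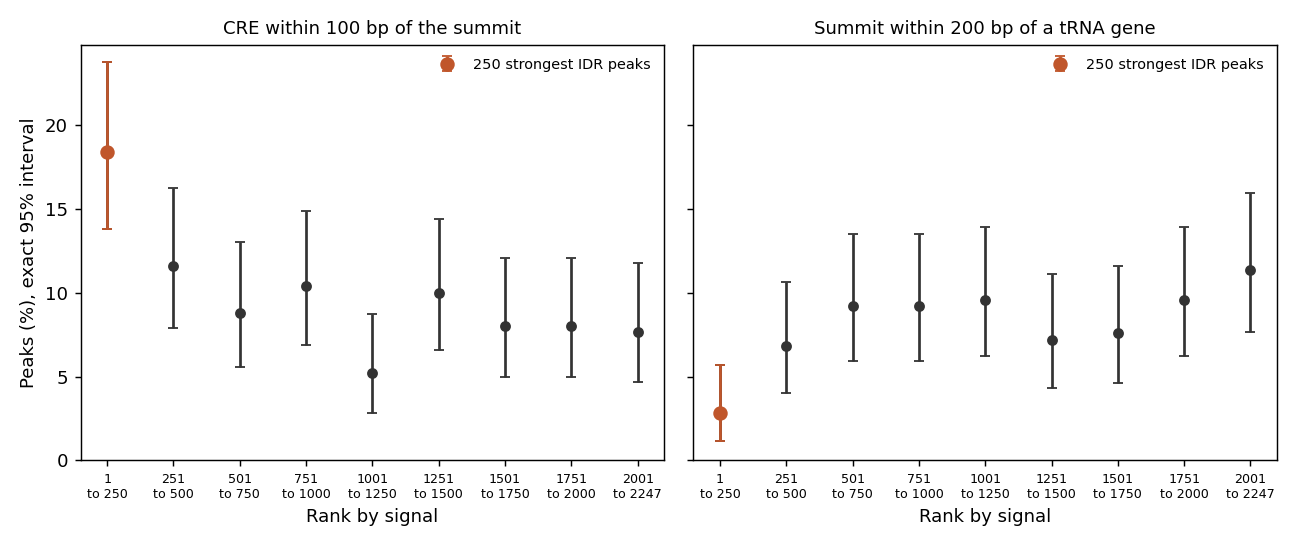
Percentage of IDR peaks with a CRE (left) and beside a tRNA gene (right) in successive groups of 250 peaks by signal, with 247 in the last, and exact 95% intervals. The members, the first group, have the highest CRE share, 18.4%, and the lowest tRNA share, 2.8%. The 8 further groups lie between 5.2% and 11.6% for the CRE and between 6.8% and 11.3% for tRNA genes.

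The promoters that held a member summit belonged to 165 of 19973 protein-coding genes, which is 0.826%, and 37 of the 131 promoter members served more than 1 gene. For comparison, 1245 genes, 6.23%, had a promoter with any IDR peak. Counts over gene lists are set beside these shares as a description, with no test. The lists were drawn up from gene symbols, so a gene of the same kind under another symbol is not counted, and those seen by their RefSeq product names are given beside the lists. Genes of protein synthesis and folding come first. Of 83 cytosolic ribosomal protein genes, 7 (8.43%) had a member, namely rpl-3 (1051), rpl-20 (749), rpl-15 (705), rpl-35 (576), rps-1 (443), rps-19 (425) and rpl-12 (339), and 23 had any IDR peak. None of these 7 peaks held a full CRE, and those of rpl-35, rps-1 and rps-19 held the core. Of 37 translation factor genes 2 had a member, iff-2 (415), an initiation factor, and eef-1A.2 (348), an elongation factor. The peak at rank 193 (317) lay 258 bp upstream of C37C3.18, which RefSeq names an initiation factor and which is not in the list.

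Of 56 heat shock protein and cochaperone genes, 6 (10.7%) had a member, and 13 any IDR peak. These were hsp-60 (472), the mitochondrial chaperonin, whose peak was nearer to Y22D7AL.10, hsp-3 (432), an endoplasmic reticulum chaperone, hsp-1 (424), a constitutive heat shock protein 70, dnj-13 (423), a J-domain cochaperone, hsp-90 (369), the cytosolic chaperone, and hsp-110 (284), whose peak also lay at rpn-3, a proteasome subunit. The summits at hsp-90 and hsp-110 were nearer to the 5′ ends of C47E8.4 and rpn-3. Y22D7AL.10, a small mitochondrial heat shock protein per RefSeq, and F44E5.4 and F44E5.5, which share the peak at rank 27, are of the same kinds under other symbols and are not in this list. The chaperonin subunit gene cct-8 (445) was 1 of 8 of its complex with a member, and the summit was nearer to the 5′ end of Y55F3AR.2. Of 41 genes of the unfolded protein response, 3 (7.32%) had a member, xbp-1, cdc-48.1 and hsp-3. All 3 peaks held the core, and that of xbp-1 held a full CRE. Of 75 respiratory chain and ATP synthase genes, 2 had a member, cox-5A (525) and nduf-2.2 (318), and of 82 histone genes 1 had, his-37 (521). The summit at nduf-2.2 was nearer to the 5′ end of dlc-1.

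For the lists of defence and detoxification genes the counts were 0 or 1, where 0.826% of a list of any genes would also be about 2 or fewer. Of 240 C-type lectin genes, 1 had a member, clec-126 (350), and its summit was also beside 2 tRNA genes. D1005.10, a C-type lectin domain gene per RefSeq that is not in the list, lay 241 bp downstream of the summit at rank 10, the peak of dhs-25. Of 115 genes listed as antimicrobial and saposin-like peptides, 1 had a member, dod-3 (301). It is in the list by its symbol, and RefSeq names it only as regulated by DAF-16. Of 274 nuclear receptor genes 2 had a member, nhr-68 (396) and nhr-35 (315), and of 1316 chemoreceptor genes 3 had, sri-39 (367), srh-2 (355) and srh-269 (301). The summit at nhr-68 was nearer to the 5′ end of H12C20.7. No member was in a promoter of the 177 cuticle collagen genes, the 16 lysozyme genes, the 6 vitellogenin genes, the 74 cytochrome P450 genes, the 116 glutathione and UDP-glucuronosyl transferase genes or the 32 aminoacyl-tRNA synthetase genes. Among 35 genes of stress-activated kinase signalling, a list that includes atf-7 itself, 2 had a member at the promoter, cebp-1 (397) and nipi-3 (337), a pseudokinase that acts with CEBP-1.

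The gene with the nearest 5′ end was also taken for each member, since 119 lay outside promoters. The 250 members had 230 different nearest genes, and 19 genes were nearest to more than 1 member. Y43F8B.2 was nearest to 3, at ranks 5, 172 and 205. The genes with 2 included zip-2 (ranks 23 and 34), atf-7 itself (33 and 123), crh-1 (83 and 109), hsp-1 (94 and 140), pqn-41 (49 and 63), serp-1.1 (3 and 139), sup-26 (8 and 244), nhr-3 (166 and 221) and the chromatin genes zfp-1 (44 and 212) and let-526 (149 and 194). Genes named by this measure outside the 30 strongest members, and those found by product name, were chosen after their values were seen.

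Genes with the symbol of a bZIP factor, the family of ATF-7, were nearest to 9 members (3.6%, interval 1.66 to 6.72), against 32 of the other IDR peaks (1.60%), and make up 0.150% of protein-coding genes. Of the 9, 5 lay outside promoters, 5 held a full CRE and 7 held the core. They were nearest 6 genes, namely fos-1, xbp-1 and cebp-1, and zip-2, atf-7 and crh-1 with 2 peaks each. At the 2 of atf-7, reads of the locus and of the transgene cannot be told apart. The list misses gei-4, a bZIP domain gene per RefSeq (rank 76, 470), and the bZIP factor gene atfs-1 (rank 142, 361), which were each nearest to 1 further member, both with the core. The other IDR peaks were counted by the same symbols. Among the 30 bZIP genes, 4 (13.3%) had a member at a promoter and 16 any IDR peak. The peak of zip-2, a factor of the infection response, was at 692 in a coding exon 1721 bp downstream of the 5′ end (III:835729-836371), with 296 in replicate 2 (rank 12) and 422 in replicate 3 (rank 23). Its second, at 594 (III:833683-834060), was 202 bp upstream, with 190 in replicate 2 (rank 63) and 408 in replicate 3 (rank 26), so the order of the 2 zip-2 peaks by rank was the same in both replicates and closer in replicate 3.

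The 2 peaks nearest atf-7 lay in annotated introns, at 604 (III:4496083-4496438) and 381 (III:4502913-4503167), 1812 and 3970 bp upstream of the nearest atf-7 5′ end. The first had 264 in replicate 2 (rank 18) and 340 in replicate 3 (rank 52). The second had 105 in replicate 2 (rank 281) and 275 in replicate 3 (rank 90). Both held the core and neither a full CRE. The share of these signals that comes from transgene copies was not tested. The gene crh-1, which encodes the worm CREB, had a peak at 440 in an intron 2020 bp downstream of its 5′ end (III:11684821-11685121) and a peak at 398 that was 55 bp downstream (III:11689438-11689703). Each held a full CRE. The peak of cebp-1, a C/EBP factor of the axon and infection responses, was at 397, 175 bp upstream (X:1453871-1454197), and it also held a full CRE.

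Taking 7 lists of transcription factors together (bZIP, basic helix-loop-helix, nuclear receptor, homeobox, GATA, forkhead and T-box), the nearest gene was such a factor for 24 members (9.6%, interval 6.25 to 13.9), against 112 of the other IDR peaks (5.61%, interval 4.64 to 6.71). By gene symbol these lists hold 2.46% of protein-coding genes. Of the 24, 18 lay outside promoters, 9 held a full CRE and 17 the core. The 2 peaks nearest atf-7 are among the 24. Beside the bZIP genes they were nearest the helix-loop-helix genes mml-1 (472), mdl-1 (410) and hif-1 (320), of which MML-1 is the Mondo-like factor, MDL-1 a Mad-like factor and HIF-1 the hypoxia-inducible factor. The peak of mml-1 held both a CRE and an E-box. Another 8 were nearest nuclear receptor genes, with nhr-88 (579) the strongest and daf-12 (287), the receptor for dafachronic acid, the weakest. The others were nearest ceh-5 (530), egl-27 (386), fkh-7 (320) and duxl-1 (304). Among regulators outside these lists, the peak nearest mef-2 was at 544 with a CRE, that at the promoter of cbp-1, a histone acetyltransferase and coactivator of CREB, was at 506, that nearest the mitochondrial stress factor gene atfs-1 was at 361, and those nearest daf-5 and daf-14, of dauer signalling, were at 504 and 354. Intergenic and intronic distance also depends on how long the flanking sequence of a gene is, and the part of that in these counts was not tested.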

How the data were processed

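Per the labels and the deposited listings, the authors made relaxed peak lists from replicate 2, from replicate 3 and from both together, each with a control, and the optimal IDR list from those. Neither the aligner nor the peak caller is named in those sources. The signal in the deposited lists was read as each peak's value over the control, which no header states, and the deposited −log10 q was 3.72 in all IDR peaks, so it gave no rank. The files hold no read depth, and intervals (exact Clopper-Pearson, 95%) cover counting error only.

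The members, gene lists and tests were chosen with earlier results of these data known, and earlier results already held a difference in signal of peaks with a CRE. The ce11 lists were joined to WBcel235 with Ensembl release 115 and RefSeq product names, and coordinates count from 1. Summits were matched within 100 bp. Named genes were those nearest the 30 strongest members, up to 4 per gene list with a member at a promoter (all are given for ribosomal and heat shock genes), and the 5 best and 5 worst by summed replicate rank. Others, including genes named as nearest to a member or by product, were chosen after their values were seen. Sequence windows were lengthened from 50 to 100 bases on each side where the motif lay outside. Python 3.11.15 with pandas 2.3.3 and scipy 1.17.1 was used, and the tests were checked on simulated data.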

Additional observations from a re-analysis of the deposited data

How the results depend on the processing

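Of 168 tested differences with a direction, each a result under 1 alternative, 138 kept it and their side of the threshold of 0.05. Another 16, AP-1 and the scrambled CRE against flanks, had a difference of 0 to begin with and stayed uncalled, and 8 further values had no test. Percentages are of members, then of the peaks or flanks compared. The CRE share kept both, against the other IDR peaks or the peaks that replaced them and against flanks, under all alternatives run. With promoters of 500 bp to each side, the promoter share turned to 39.2% against 42.4% and the divergent share was no longer called (8% against 5.16%). In the next 2 sets the list of 1 replicate alone was used. Its 250 strongest peaks replaced the members, and its further peaks to rank 2247, which need not have passed IDR, replaced the other IDR peaks. Without replicate 2, the divergent (12.4% against 8.36%) and intergenic (65.2% against 57.6%) calls were lost and the intron share turned (25.6% against 25.1%; 23.2% of members without replicate 3). Without replicate 3, the tRNA call was lost (4.8% against 7.46%) and the other small RNA share was called (8.8% against 4.16%). The promoter share was 52.0% to 53.2% in these 2 sets, the tRNA share 2.0% to 4.8%, and the CRE share 16.8% to 20%. With the 500 strongest, the other small RNA share was called (9.4% against 3.95%), as was GATA against flanks (26.4% against 18.4%), and the X share turned (21.8% against 21.9%). With the 100 strongest, the E-box call against flanks was lost (13% against 4%). With overlapping peaks merged, the neighbour call was lost (28.4% against 23.3%). The cause of these changes was not tested.

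Shares of motifs that were never called also turned. The first were against the other IDR peaks, or against further peaks of 1 replicate's list where the other replicate was left out. AP-1 turned without replicate 2 (2.4% against 2.85%), without replicate 3 (2.8% against 3.10%) and in windows of 50 bp to each side (0.8% against 1.20%). C/EBP turned with the 500 strongest (3.8% against 4.12%), without replicate 2 (3.6% against 4.06%) and without replicate 3 (3.2% against 4.21%). It also turned in windows of 50 bp (1.6% against 2.25%) and 150 bp (6% against 6.26%). SKN-1 turned with the 100 strongest (7% against 10.2%) and without replicate 3 (9.6% against 10.2%, and 11.2% of members without replicate 2). The scrambled CRE turned in windows of 150 bp (0.4% against 0.501%). Against flanks, these were C/EBP with the 500 strongest (3.8% against 4.6%), without replicate 2 (3.6% against 4%), without replicate 3 (3.2% against 5.2%), in windows of 50 bp (1.6% against 2%) and 150 bp (6% against 8%) and with the flank on the other side (4.4% against 6.4%), and SKN-1 with the 100 strongest (7% against 8%). Matching summits within 50 or 200 bp gave 225 and 249 members in both replicates, against 244. No paired analysis was possible because the samples form 1 group.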
